A study of Mus musculus with 6 samples.

Results

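Mki67, Hmmr, Bub1b, Cenpa and Fam83d encode proteins of the mitotic spindle, the centromere and the dividing nucleus. Fam72a encodes an antagonist of the uracil-DNA glycosylase Ung. These are 6 of the 1228 genes in a table of FPKM values (fragments per kilobase of gene, scaled to the size of the library). The values come from Bv2 cells, an immortalised mouse microglial line. The 6 genes were picked by name, with their difference between the groups already known, from a table whose rows had themselves been picked for a difference on the same samples. Every value that compares the groups in these 6 genes is therefore a description and carries no test. The table held 605 genes with the higher mean after deprivation and 623 with the lower. The log2 ratio of OGD/R to control means nearest to 0 was 1.03 among the higher genes and -0.97 among the lower. Genes outside the table are not analysed here.

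The groups were 3 samples after oxygen and glucose deprivation with reperfusion (OGD/R) and 3 control samples, all of wild-type Bv2 cells. OGD/R is a culture model of ischemia. Per the labels' protocols the OGD/R cells spent 30 min in nitrogen and 2 h at 1% oxygen in medium free of glucose and serum, and then 24 h in standard medium with serum. The protocol places this 72 h after an infection, without naming an agent or saying which samples it concerns, so infection and OGD/R cannot be told apart if only 1 group had it. It does not say whether control cells had serum withdrawn or their medium changed. Nothing states that replicates were separate cultures, so p-values here speak only of these 6 samples and the spread may be technical.

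A cell that enters mitosis builds a bipolar spindle, attaches it to chromosomes through kinetochores that sit on centromeres, and holds back anaphase by the spindle checkpoint until every chromosome is attached. The transcripts of this machinery are low in resting cells and accumulate from S phase to mitosis. Microglia in healthy brain seldom divide, while Bv2 cells, transformed by a retroviral oncogene, cycle continuously in culture. In bulk RNA, more cells in mitosis and more RNA per dividing cell cannot be told apart.

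Depth and library differences bear on each value. Low FPKM values came in steps, from which each OGD/R library held 8030000 to 8665000 counted units and each control library 7628000 to 8247000, with 96.6% to 100% of low values whole. The size of each library was chosen to make this share high. At the best of the other sizes compared, the share was 27.1% to 48.3%. The table took 4.03% to 4.11% of the units in OGD/R libraries and 5.07% to 5.63% in control libraries. Within each group 1 library stood apart: OGD/R replicate 3 and control replicate 1 departed from their group mates in opposite directions across genes. Of the 16 microglia and macrophage markers listed, 2 were in the table, so the cell type label could not be checked against the rest. Cx3cr1, the fractalkine receptor, was at 1.77 ± 0.22 FPKM in OGD/R and 0.373 ± 0.150 FPKM in control (SD, n = 3 each), and the purine receptor P2ry12 at 1.25 ± 0.324 FPKM in OGD/R and 0.530 ± 0.108 FPKM in control. No test is given for either, since P2ry12 was under the minimum for testing and Cx3cr1 passed it only through its OGD/R values. Of 23 markers of other cell types 3 were in the table (Vwf, Tubb3 and Cspg4). They summed to 1.47 to 1.97 FPKM in OGD/R libraries and 4.01 to 5.11 FPKM in control libraries, with Tubb3 and Cspg4 listed at 0 in OGD/R replicate 2. Most of each sum was Vwf, at 1.44 ± 0.321 FPKM in OGD/R and 3.66 ± 0.645 FPKM in control (SD, n = 3 each). Tubb3 was at 1.17 FPKM or less and Cspg4 at 0.09 FPKM or less in every library. Their part in the results below was not tested.

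The promoters of all 6 genes are shown because they share 2 short elements that are known from cell cycle genes. The cell cycle genes homology region (CHR), with the core TTTGAA, is bound in human and mouse cells by the DREAM and MMB complexes, which repress such genes in resting cells and activate them late in the cycle. The CCAAT box is bound by the factor NF-Y. Sequences come from RefSeq on GRCm38.p6 and cover 250 bases before to 50 bases after each start, and all 6 genes matched. Both elements were searched on both strands, as TTTGAA or its complement TTCAAA and as CCAAT or its complement ATTGG. They were chosen after the promoters had been read. All 6 windows held the CHR core, against 17.9% of the 32851 mouse start windows. All 6 also held a CCAAT box, against 37.4%, and 6.95% of all windows held both. The related core TTCGAA was in the Bub1b window only among the 6, and in 1.56% of all windows. Below are 30 bases around each CHR core, with the core or its complement in capitals. Mki67 is shown at both of its matches.
Mki67, chr7:135716478-135716507, minus strand: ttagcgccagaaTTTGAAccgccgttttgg
Mki67, chr7:135716460-135716489, minus strand: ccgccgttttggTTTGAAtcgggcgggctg
Hmmr, chr11:40733412-40733441, minus strand: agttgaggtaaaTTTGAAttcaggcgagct
Bub1b, chr2:118598231-118598260, plus strand: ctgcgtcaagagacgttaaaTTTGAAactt
Cenpa, chr5:30666890-30666919, plus strand: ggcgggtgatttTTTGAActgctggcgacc
Fam83d, chr2:158768037-158768066, plus strand: gggctggtttgaTTCAAAgatgcctataaa
Fam72a, chr1:131527923-131527952, plus strand: ctgctcggcgcaggcaaTTCAAActgacag

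The core read TTTGAA in the gene's own direction in Mki67, Hmmr, Bub1b and Cenpa, and was on the opposite strand in Fam83d and Fam72a. Counted from the RefSeq start, its first base lay upstream at -116 and -98 in Mki67 and at -50 in Fam83d. In Cenpa, Hmmr, Fam72a and Bub1b it lay after the start, at bases 17, 9, 38 and 41. In every one of the 6 windows all CCAAT boxes lay upstream of the CHR core, in number 3 in Mki67, 5 in Hmmr, 1 in Bub1b, 2 in Cenpa, 3 in Fam83d and 6 in Fam72a. The 250 bases before the start are printed for Mki67 and Fam83d, where both elements lie upstream, and for Hmmr, where 5 boxes face the same way. Within each of Cenpa, Fam83d and Fam72a all boxes also face the same way. Capitals mark the CHR core and the box, on either strand.
Mki67, chr7:135716380-135716629, minus strand: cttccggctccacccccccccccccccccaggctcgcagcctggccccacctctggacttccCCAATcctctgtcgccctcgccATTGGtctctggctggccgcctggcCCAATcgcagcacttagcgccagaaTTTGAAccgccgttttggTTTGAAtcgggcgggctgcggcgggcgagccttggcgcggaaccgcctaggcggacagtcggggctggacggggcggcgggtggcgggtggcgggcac
Fam83d, chr2:158767849-158768098, plus strand: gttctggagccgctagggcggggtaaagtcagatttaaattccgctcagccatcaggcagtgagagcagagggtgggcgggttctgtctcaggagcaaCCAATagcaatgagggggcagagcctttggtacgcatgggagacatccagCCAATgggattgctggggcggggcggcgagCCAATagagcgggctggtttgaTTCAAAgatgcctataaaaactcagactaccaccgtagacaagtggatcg
Hmmr, chr11:40733438-40733687, minus strand: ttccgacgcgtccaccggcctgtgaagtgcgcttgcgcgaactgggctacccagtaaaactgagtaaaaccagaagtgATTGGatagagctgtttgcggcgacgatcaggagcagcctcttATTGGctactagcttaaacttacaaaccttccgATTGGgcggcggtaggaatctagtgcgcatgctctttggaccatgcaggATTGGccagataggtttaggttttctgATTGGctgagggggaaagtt

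**Figure D1:**
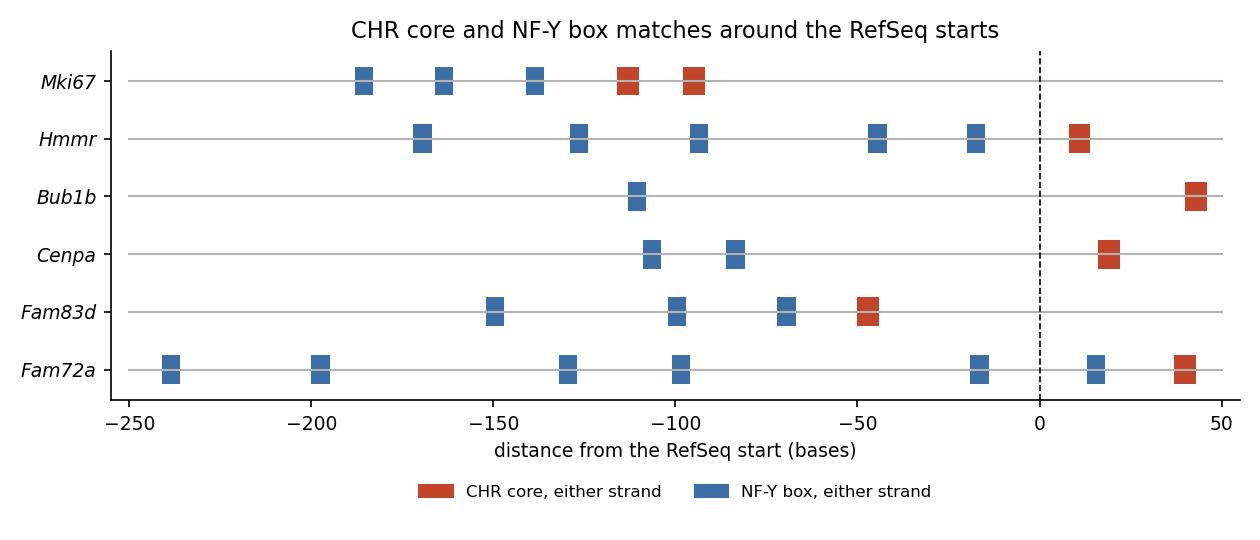
Positions of the CHR core (red) and the NF-Y binding box (blue), on either strand, from 250 bases before to 50 bases after the RefSeq start of each gene; the dashed line is the start. Each gene has at least 1 of each, and the CHR core lies downstream of every box.

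Of the other genes on the mitotic and spindle lists described below, 35 of the 41 in the table had a window by symbol. The CHR core was found in 23 of these 35 (65.7%) and a CCAAT box in 22 (62.9%). For genes with a single window, the CHR core was in 20 of 31 mitotic genes (64.5%), in 32 of 176 other genes called higher in OGD/R (18.2%), in 22 of 217 genes called lower (10.1%), and in 18.5% of all such genes. The CCAAT box was in 19 of the 31 mitotic genes (61.3%), in 83 of the 176 other higher genes (47.2%), in 100 of the 217 lower genes (46.1%), and in 38.2% of all such genes, so its share in other higher genes was close to that in lower genes. These shares are descriptions, and a match does not show that a factor binds.

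Mki67 encodes Ki-67, a nuclear protein that coats mitotic chromosomes and is the standard histological marker of cycling cells. The gene (ENSMUSG00000031004) lies on the minus strand at chr7:135689784-135716361 in GRCm38. Its level was 104, 103 and 79.0 FPKM in OGD/R replicates 1, 2 and 3, against 45.0, 28.6 and 31.7 FPKM in control replicates 1, 2 and 3. The groups did not overlap, and OGD/R replicate 3 was the lowest of its group while control replicate 1 was the highest of its own. The ratio of means was 2.72, and single OGD/R libraries were 1.76 to 3.64 times single control libraries. Between 6888 and 8755 units stood behind each OGD/R value and between 2375 and 3468 behind each control value. The spread between replicates, a coefficient of variation of 14.8% in OGD/R and 24.7% in control, was far above the 1.12% and 1.90% that counting alone gives. Without OGD/R replicate 3 and control replicate 1 the ratio was 3.43. A gene of unconfirmed status, Gm45240, overlaps Mki67 on the other strand. No source used here says whether reads were counted by strand, so the overlap makes the value uncertain.

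Of the 6 genes, Hmmr had the lowest coefficient of variation in both groups. It encodes the hyaluronan-mediated motility receptor (RHAMM), which binds microtubules and helps to organise spindle poles. The gene (ENSMUSG00000020330) lies on the minus strand at chr11:40701395-40733422. Its level was 44.9, 41.1 and 41.5 FPKM in OGD/R replicates 1, 2 and 3, against 14.2, 14.0 and 13.4 FPKM in control replicates 1, 2 and 3. All 3 OGD/R libraries were about equally far above all 3 control libraries, at 2.89 to 3.35 times any single one, with a ratio of means of 3.06. The coefficient of variation was 4.88% in OGD/R and 3.00% in control, against 2.27% and 4.11% from counting alone. Leaving out OGD/R replicate 3 and control replicate 1 gave a ratio of 3.14.

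Fam83d encodes a spindle protein that in human cells binds the product of HMMR and brings the kinase CK1 alpha to the spindle. The gene (ENSMUSG00000027654) lies on the plus strand at chr2:158768093-158786637. It was far lower than Hmmr, at 2.37, 2.07 and 2.49 FPKM in OGD/R replicates 1, 2 and 3, against 0.880, 1.00 and 0.890 FPKM in control replicates 1, 2 and 3. The groups did not overlap and the ratio of means was 2.50. On the log2(FPKM + 1) scale the difference was 0.78, smaller than the log2 ratio of 1.32 because the pseudocount shrinks low values. Counts were few, 70 to 86 units per OGD/R library and 27 to 33 per control library. The nearest libraries were OGD/R replicate 2 with 70 units and control replicate 2 with 33, whose exact 95% Poisson intervals of 54.6 to 88.4 and 22.7 to 46.3 units did not overlap. These intervals cover counting error only. No other FAM83 gene was in the table. Hmmr stood to Fam83d at 18.9, 19.9 and 16.7 in OGD/R replicates 1, 2 and 3 and at 16.2, 14.0 and 15.1 in control replicates 1, 2 and 3, as ratios of FPKM. The lowest OGD/R ratio was just above the highest control one. Counting alone gives Fam83d a coefficient of variation of 11.4% in OGD/R and 18.6% in control, more than this gap.

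Bub1b encodes BubR1, a checkpoint protein that with Mad2, Bub3 and Cdc20 forms the complex that inhibits the anaphase-promoting ubiquitin ligase. The gene (ENSMUSG00000040084) lies on the plus strand at chr2:118598211-118641591. Its level was 42.9, 45.1 and 48.1 FPKM in OGD/R replicates 1, 2 and 3, against 16.8, 16.6 and 17.9 FPKM in control replicates 1, 2 and 3. Both groups were tight and lay far apart, with single OGD/R libraries at 2.39 to 2.90 times single control libraries and a ratio of means of 2.65. The coefficient of variation was 5.79% in OGD/R and 4.24% in control, where counting alone gives 2.48% and 4.18%. Without OGD/R replicate 3 and control replicate 1 the ratio was 2.55.

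Cenpa encodes the histone H3 variant that marks centromeric chromatin and on which kinetochores are built. The gene (ENSMUSG00000029177) lies on the plus strand at chr5:30666777-30674830. Its level was 18.3, 20.5 and 30.0 FPKM in OGD/R replicates 1, 2 and 3, against 5.43, 8.38 and 7.79 FPKM in control replicates 1, 2 and 3. The groups did not overlap, with OGD/R replicate 3 the highest library and control replicate 1 the lowest, the reverse of Mki67. The ratio of means was 3.18, the largest of the 6 genes, with single-library ratios from 2.18 to 5.52. The highest was that of OGD/R replicate 3 to control replicate 1. Leaving out this pair gave a ratio of 2.40, below those of Hmmr, Mki67 and Bub1b without the same libraries. The coefficient of variation was 27.0% in OGD/R and 21.7% in control, against 2.97% and 5.49% from counting.

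Fam72a encodes a small protein that in mouse B cells antagonises the uracil-DNA glycosylase Ung during antibody class switching. The gene (ENSMUSG00000055184) lies on the plus strand at chr1:131527903-131539872. Its level was 1.88, 2.16 and 3.32 FPKM in OGD/R replicates 1, 2 and 3, against 0.650, 1.27 and 1.44 FPKM in control replicates 1, 2 and 3. The groups did not overlap but came close, since OGD/R replicate 1 was 1.31 times control replicate 3. Those libraries held 33 and 24 units, and their exact 95% Poisson intervals, 22.7 to 46.3 and 15.4 to 35.7 units, overlapped. The ratio of means was 2.19, and 1.49 without OGD/R replicate 3 and control replicate 1. As in Cenpa, those 2 libraries were the highest and the lowest.

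**Figure D2:**
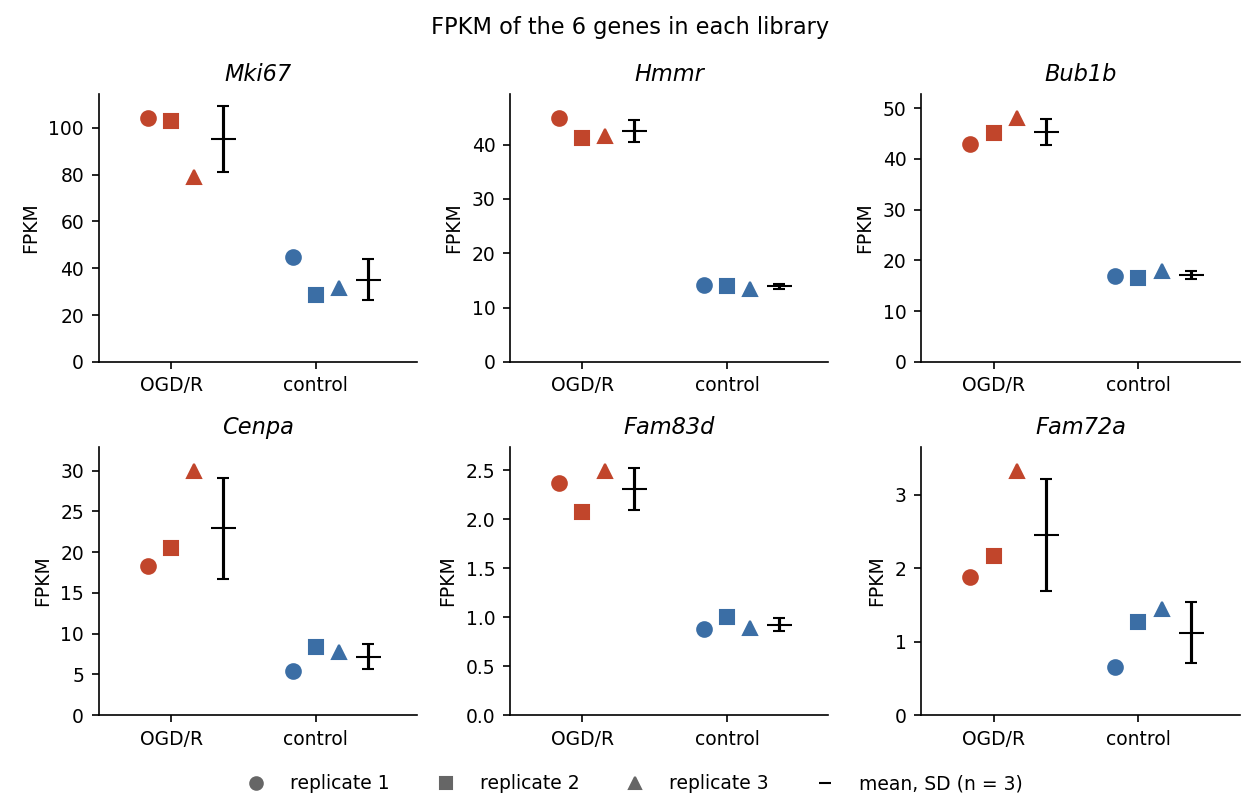
FPKM of each gene in the 3 OGD/R libraries (red) and the 3 control libraries (blue), with symbols for replicates and bars for the mean and SD (n = 3); each panel has its own axis from 0. All 6 genes have separate groups; OGD/R replicate 3 is low in Mki67 and high in Cenpa and Fam72a, and control replicate 1 does the opposite.

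In all 6 genes the 3 OGD/R values lay above the 3 control values, which also held for 594 of the 1228 genes of the table (48.4%); the genes were chosen for this difference, so nothing follows from the count. As levels in FPKM, the order in OGD/R was Mki67, Bub1b, Hmmr, Cenpa, Fam72a and Fam83d. Bub1b and Hmmr overlapped there, as did Fam72a and Fam83d. In control the order was the same, with Mki67, Bub1b, Hmmr and Cenpa apart from each other and Fam72a and Fam83d overlapping. The ratio of Hmmr to Bub1b was 1.05, 0.913 and 0.863 in OGD/R replicates 1, 2 and 3, and 0.844, 0.846 and 0.748 in control replicates 1, 2 and 3. Mki67 stood at 1.64 to 2.43 times Bub1b in OGD/R and at 1.73 to 2.67 times in control, ranges that overlapped.

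The order depends on gene length. The steps in the values matched the length of all annotated exons together, which in Cenpa is 5860 nt against 1466 nt for its principal transcript. Mki67 and Fam72a have equal values for both, 10061 and 2191 nt. Taken per principal transcript, the level of Cenpa would be 91.6 ± 24.7 in OGD/R and 28.8 ± 6.24 in control (SD, n = 3 each), in the same units. Hmmr would be at 59.3 ± 2.90 in OGD/R and 19.4 ± 0.581 in control, and Bub1b at 52.8 ± 3.06 in OGD/R and 19.9 ± 0.846 in control. Both would be below Cenpa. Hmmr would be above Bub1b in OGD/R, while in control the values of Hmmr and Bub1b would overlap. Fam83d would be at 4.07 ± 0.381 in OGD/R and 1.63 ± 0.117 in control, above Fam72a in both groups, which stays at 2.45 ± 0.764 in OGD/R and 1.12 ± 0.416 in control. Mki67 stays at 95.3 ± 14.2 in OGD/R and 35.1 ± 8.69 in control. This assumes that all units came from that transcript. Ratios between groups are not touched by it.

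The 6 genes fell into different patterns within the groups. These patterns are not independent of the choice of genes, since the same libraries entered the difference between the groups. For Fam72a the ratio of means was 2.19 with all libraries and 1.49 without OGD/R replicate 3 and control replicate 1. On the log2(FPKM + 1) scale, OGD/R replicate 3 minus the mean of replicates 1 and 2 was -0.39 for Mki67, 0.60 for Cenpa and 0.52 for Fam72a. Control replicate 1 minus the mean of replicates 2 and 3 was 0.56 for Mki67, -0.50 for Cenpa and -0.51 for Fam72a. For Hmmr, Bub1b and Fam83d these differences were between -0.05 and 0.13. Across all 852 genes with a mean of at least 1 FPKM the same opposition was seen, with a Spearman correlation of -0.58 between the 2 differences, which share no library. It is given as a description, since genes are not independent replicates and the rows were picked on these same libraries. The medians of the absolute differences were 0.21 in OGD/R and 0.25 in control.

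Transcript length moved with this pattern. Across the 852 genes the Spearman correlation with the length of the principal transcript was -0.30 for the OGD/R difference and 0.28 for the control difference. With GC content it was 0.12 and -0.09. Genes high in OGD/R replicate 3 and low in control replicate 1, 386 in number, had a median transcript of 2025 nt, and the 216 with the opposite pattern had 3620 nt. Mki67 has the longest principal transcript of the 6 genes and Cenpa the shortest, followed by Fam72a at 2191 nt and Fam83d at 2266 nt. Though close in length, Fam83d had differences of 0.12 in OGD/R and -0.05 in control, against 0.52 and -0.51 for Fam72a. Among 41 other mitotic genes 15 had the first pattern, with a median transcript of 2593 nt, and 15 the second, with 5221 nt. The part of length in the values of these libraries was not tested.

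**Figure D3:**
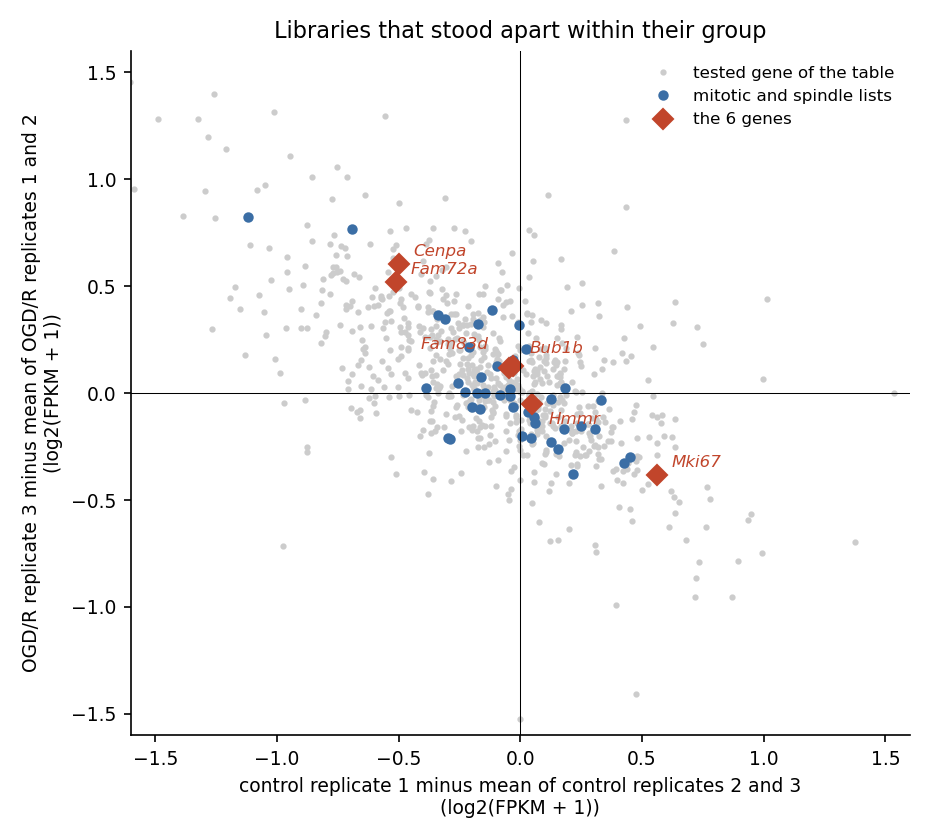
For each tested gene, the departure of control replicate 1 from its group mates (horizontal) and of OGD/R replicate 3 from its own (vertical), on the log2(FPKM + 1) scale; 19 genes lie outside the axes. Mki67 sits at lower right, Cenpa and Fam72a at upper left, and Hmmr, Bub1b and Fam83d near the centre.

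Genes around the 6 were next compared by role, from lists of cell cycle genes without the 6 themselves. Genes with a mean of at least 1 FPKM were tested on log2(FPKM + 1) with limma, with Benjamini-Hochberg adjustment over all 852 and a threshold of 0.05. Of these 852, 397 were higher in OGD/R (46.6%) and 432 lower (50.7%), 829 in all (97.3%). Of 163 genes on the 9 mitotic and spindle lists, 41 were in the table, and all 41 were tested and rose, with a median log2 fold change of 1.12. The median was -0.68 over all 852 tested genes and 1.04 over the genes that rose. The first of these is negative because more tested genes fell than rose, and it marks no typical gene. Since the table holds only genes picked for a difference, the count does not say how many mitotic genes responded. For the same reason the adjusted p-values given for single genes control no error rate. They describe the size of a difference against its spread and are not evidence that a gene changed. The ratios of group means ran from 2.12 to 2.90 with a median of 2.34. The ratios of Hmmr and Cenpa were above this range, and that of Fam72a was near its lower end. Without OGD/R replicate 3 and control replicate 1 the ratio of Cenpa was 2.40. The lower end is bounded by the picking of rows, where the smallest log2 ratio among higher genes was 1.03. The 41 genes had a median transcript of 3419 nt and GC content of 43.5%, against 2993 nt and 46.1% for all genes that rose and 2066 nt and 52.9% for those that fell, and the part of either in the counts was not tested.

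Beside Mki67, the other classic marker in the table was Top2a, the topoisomerase that untangles chromosomes before anaphase. It rose to 61.8 ± 4.12 FPKM in OGD/R, against 27.7 ± 3.67 FPKM in control (SD, n = 3 each; limma adjusted p = 0.00025). Of 24 other spindle assembly factors, 5 were in the table and all 5 rose. Among these were Ckap2l and Nusap1, which bind microtubules at the spindle, Prc1, which bundles the central spindle, and Aspm, a protein of the spindle poles, with log2 fold changes of 1.21, 1.14, 1.07 and 1.07. Of 14 mitotic kinesins 9 were in the table and all 9 rose. Kif20b, Kif23 and Kif11, a motor that pushes spindle poles apart, and Kif20a had log2 fold changes of 1.35, 1.30, 1.23 and 1.07.

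At the centromere and kinetochore, 5 of 39 listed genes other than Cenpa were in the table, and all 5 rose. Cenpf, a large protein of the outer kinetochore, was at 13.1 ± 1.63 FPKM in OGD/R and 4.68 ± 1.07 FPKM in control (SD, n = 3 each; limma log2 fold change 1.32, adjusted p = 0.00040). Knl1, the scaffold on which Bub proteins gather, and Cenpi had log2 fold changes of 1.31 and 1.20. The CENP-A chaperone Hjurp is not analysed here.

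Of 20 checkpoint and chromosomal passenger genes other than Bub1b, 3 were in the table and all 3 rose. They were Bub1, the kinase that recruits BubR1 to kinetochores, Sgo2a, a shugoshin that protects centromeric cohesin, and Ttk, the kinase (Mps1) that starts checkpoint signalling. Bub1 rose to 59.5 ± 1.46 FPKM in OGD/R, against 23.4 ± 3.33 FPKM in control, and their log2 fold changes were 1.32, 1.32 and 1.12. Of the anaphase-promoting complex, its activators and inhibitors, 1 of 18 was in the table, the inhibitor Fbxo5 (Emi1), which rose with 1.13.

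Of 19 mitotic kinases, cyclins and related genes 8 were in the table and all 8 rose. Pbk, a mitotic kinase, was at 60.1 ± 9.28 FPKM in OGD/R and 21.1 ± 3.04 FPKM in control (SD, n = 3 each; limma adjusted p = 0.00023). Cyclin A2 (Ccna2) and Aurka, a kinase of the spindle poles, had log2 fold changes of 1.19 and 1.14. Cks2, a small subunit of Cdk complexes, had 1.45, and 0.80 without OGD/R replicate 3 and control replicate 1. Of 19 cohesin and condensin genes 5 were in the table and rose, led by the acetyltransferase Esco2 (1.27) and the condensin subunits Ncapg2 (1.08) and Ncapg (1.05), with the cohesin regulator Pds5b at 1.02. Of 8 cytokinesis genes 4 were in the table and rose. Their log2 fold changes were 1.38 for Cep55, which works at the midbody, 1.05 for Ect2, which acts at the cleavage furrow, 0.79 for Arhgef39 and 0.66 for the kinase Cit. Arhgef39 had a limma adjusted p of 0.033, and lost its call without OGD/R replicate 3 (0.080), without control replicate 1 (0.088) and without both (0.052), over a range of 0.013 to 0.088.

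**Figure D4:**
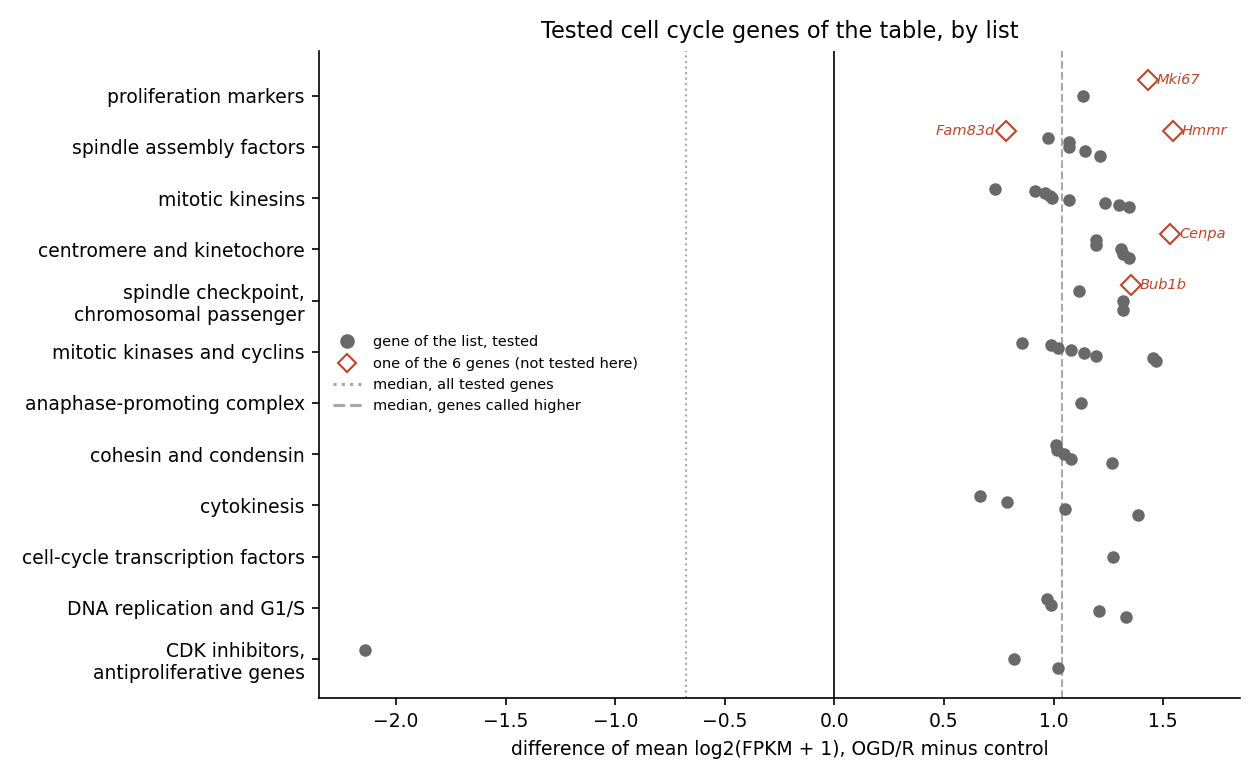
Difference of mean log2(FPKM + 1), OGD/R minus control, for tested genes of 12 cell cycle lists (dots) and for Mki67, Hmmr, Fam83d, Cenpa and Bub1b (open diamonds, not tested), with medians of all tested genes (-0.68, dotted) and of genes called higher (1.04, dashed). All dots except Gadd45a lie to the right of 0. More tested genes fell than rose, so the dotted line marks no typical gene.

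The table was also searched for genes upstream of mitosis, though how many it held does not compare the stages. Of 20 transcription factors of the cycle only E2f8, a repressor of E2F targets, was in it, and it rose to 12.7 ± 0.583 FPKM in OGD/R, against 4.68 ± 0.386 FPKM in control (SD, n = 3 each; limma adjusted p = 0.00011). Foxm1, Mybl2 and Lin54, known regulators of CHR genes, are not analysed here. Of 40 genes of DNA replication and G1/S, 4 were in the table and rose: Rrm1, Rrm2, Ccne1 and Mcm10, with log2 fold changes of 1.33, 1.21, 0.99 and 0.97. Of 15 inhibitors of the cycle, 3 were in the table and moved both ways. The cyclin Ccng2, linked to cell cycle arrest, and Cdkn2c, an inhibitor of Cdk4 and Cdk6, rose with 1.02 and 0.82. Gadd45a, a stress-induced growth arrest gene, fell to 3.64 ± 1.96 FPKM in OGD/R, against 19.5 ± 7.47 FPKM in control (limma log2 fold change -2.14 ± 0.39 SE, adjusted p = 0.0019). Without OGD/R replicate 3 and control replicate 1 its log2 fold change was -2.82.

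Profiles were compared by the root mean square difference of log2(FPKM + 1) over the 6 libraries, after centring each gene on its own mean, among 635 other tested genes with a symbol. The likest profile to that of Mki67 was that of Cenpf, at 0.084, followed by Met, at 0.088, where the median over the 635 genes was 1.05. This measure includes the difference between the groups, for which the rows and the 6 genes were picked. Genes that fell make the median large, so many genes that rose can lie far below it. Likeness here is a description only. Cenpf was at 13.8, 14.2 and 11.2 FPKM in OGD/R replicates 1, 2 and 3 and 5.91, 4.03 and 4.09 FPKM in control replicates 1, 2 and 3. It shared with Mki67 the low OGD/R replicate 3 and the high control replicate 1. Cenpa was likest to Mtfr2 (0.091) and Pbk (0.11), both high in OGD/R replicate 3 and low in control replicate 1. Hmmr was likest to Pde4b (0.047) and Idi1 (0.049), and Bub1b to Ccl9 (0.063) and Marcks (0.070). The pseudocount shrinks low values, so a low gene can match a higher one on this scale with a larger ratio of FPKM. Pde4b was at 3.55, 3.1 and 2.95 FPKM in OGD/R replicates 1, 2 and 3. In control replicates 1, 2 and 3 it was at 0.48, 0.36 and 0.42 FPKM. Fam83d was likest to Gab1 (0.041) and Mastl (0.044), and Fam72a to Cdkn2c (0.066) and Ccrl2 (0.088). None of the 6 genes was among the nearest 2 of another. Hmmr and Bub1b were the closest pair of the 6, at 0.14.

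In their genomic neighbourhoods, no other gene of the table lay within 200 kb of Mki67, Hmmr or Fam83d, which have 11, 7 and 8 annotated neighbours in that range. Near Bub1b lay Bmf, a BH3-only cell death gene 48.5 kb away, at 1.21, 1.17 and 1.23 FPKM in OGD/R replicates 1, 2 and 3 and 0.350, 0.480 and 0.600 FPKM in control replicates 1, 2 and 3, and Ccdc9b, 113 kb away. Both were under the minimum for testing. Gm43808, 194 kb from Cenpa, was lower in OGD/R, with a log2 fold change of -0.97 (limma adjusted p = 0.00061). Gm29488, 119 kb from Fam72a, was at 0.350 FPKM or less in every library.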

How the data were processed

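RNA sequencing of Bv2 cells gave 1 deposited table of FPKM values per gene and sample, made by the authors and printed to 2 decimals. The build is GRCm38, per the submitters' processing notes. Aligner, counter, annotation and the picking of the 1228 genes: not given in the sources used here. Libraries were made from 1 ug of RNA with paired reads of 150 nt, per the labels' protocols. Gene IDs were matched to GENCODE M21 (1227 placed).

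Counted units were recovered by searching, given exon lengths, for the library size that makes values under 15 units whole, within their rounding error plus 0.03 units. A unit may be a read or a read pair. The principal transcript is the longest that GENCODE marks as such.

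Genes with a mean of at least 1 FPKM were tested on log2(FPKM + 1), a pseudocount of 1, with limma 3.58.1 in R 4.3.3 (a group term alone, trended eBayes, two-sided tests, Benjamini-Hochberg adjustment). This scale understates the change of low genes. The procedure was tested on simulated data in which most genes did not change, noise was even and no rows were picked. That test does not cover a table picked for a difference. Other steps used Python 3.11.15, pandas 2.3.3, numpy 2.4.6, scipy 1.17.1 and matplotlib 3.10.9.

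The 6 genes and the gene lists were chosen with earlier results of these data known. Named genes are the 6, up to 4 others per list by size of change, inhibitors and cell type markers in the table, the 2 likest profiles to each of the 6, and genes of the table within 200 kb; 1 gene that the rule takes is not reported here. Alternatives covered the pseudocount, the filter, scaling, the eBayes trend, a replicate block and leaving out libraries.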

Additional observations from a re-analysis of the deposited data

How the results depend on the processing

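The median difference of the 6 genes was 1.39 on the log2(FPKM + 1) scale and ran from 1.32 to 1.38 without any 1 replicate. Without OGD/R replicate 3 and control replicate 1 together, an alternative chosen after seeing the data, it was 1.23; Fam72a then had 0.36 against 0.70, Cenpa 1.17 against 1.53, and Mki67 1.75 against 1.43, and these shifts follow from the values of those 2 libraries. All 6 differences stayed above 0 in every setting run. The separate groups fix this sign in advance when libraries are left out or the pseudocount changes, so it adds no support. With a pseudocount of 0.01 Fam83d had 1.31 and Fam72a 1.16, as a smaller pseudocount shrinks low values less. Of the 852 tested genes 829 were called, 789 to 829 without any 1 replicate, and 409 with a mean of at least 5 FPKM, where 423 were tested. Of the 41 mitotic genes 40 to 41 were called without any 1 replicate, and all 35 tested at 5 FPKM. A replicate block gave 835 called genes and 41 mitotic ones. Replicate numbers showed no steady pairing, with departures from the group means correlated at 0.428, -0.349 and 0.375 for numbers 1, 2 and 3; not every library correlated best with its own number. Depth limits Fam83d and Fam72a, at 11 to 86 units per library.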
